A study of Homo sapiens with 10 samples.

Results

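The 8 libraries described here are replicate 1 and replicate 2 of InsE, InsF, InsG and InsH, 4 derivatives of GIST-T1 in which a CTCF insulator was disrupted, out of 10 libraries in the series. GIST-T1 is an established human cell line from a metastatic gastrointestinal stromal tumour (GIST) with intact succinate dehydrogenase, and all groups share this parent, the same serum-containing medium and the same poly(A)-selected library protocol. Members were chosen by the line and replicate number in their labels, 4 libraries a side, and were compared within each line. The other 2 libraries, a pair from the wild-type control cells, were kept out of the fit and served as an independent pair with the same replicate numbers. The labels do not say what a replicate number stands for (a culture, a day, an RNA extraction or a sequencing run), what was edited in each line, or whether a line is 1 clone, so the p-values given here rest on the variation among these libraries, part or all of which may be technical.

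Both libraries of a line carry the same genotype label, so the replicate number does not separate genotypes. Some gene features are known to make RNA-seq values sensitive to such steps. Fragments rich or poor in G and C amplify with different efficiency. Genes with near-identical copies elsewhere in the genome, above all processed pseudogenes (copies of an mRNA inserted back into the genome, mostly without introns), draw reads that fit several places, and the counting program has to divide them.

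The replicate numbers differed in library properties in the same way in all 4 lines. The deposited expected counts (estimated fragments per gene) summed to between 22912425 and 42499885 in replicate 1 of the lines and to between 9399554 and 14833338 in replicate 2, against 30805146 and 20078653 in the control pair. The mean fragment length, read from the deposited gene lengths and effective lengths, was 205, 200, 207 and 203 bases in replicate 1 of InsE, InsF, InsG and InsH and 222, 215, 225 and 218 bases in replicate 2. It was higher by 16.5 ± 1.4 bases (SD, n = 4 pairs) in replicate 2 of the lines, and lower by 1.71 bases in replicate 2 of the control. The control libraries had 215.2 bases in replicate 1 and 213.5 in replicate 2, both above every replicate 1 library of the lines. The mean GC content of the counted genes, weighted by their counts, rose from 48.03%, 48.17%, 47.70% and 48.08% in replicate 1 to 48.61%, 48.74%, 48.27% and 48.68% in replicate 2. That is a gain of 0.577 ± 0.010 percentage points (SD, n = 4 pairs), against 0.042 points in the control pair. With 4 pairs an exact sign-flip permutation test cannot go below p = 0.125 (two-sided), which both measures reached (0.153 after Benjamini-Hochberg adjustment over 11 properties). The share of counts on all mitochondrially encoded genes, a common sign of RNA and cell quality, moved by at most 0.036 points within a line. It had no common direction in the lines and moved by -0.064 points in the control pair.

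**Figure D1:**
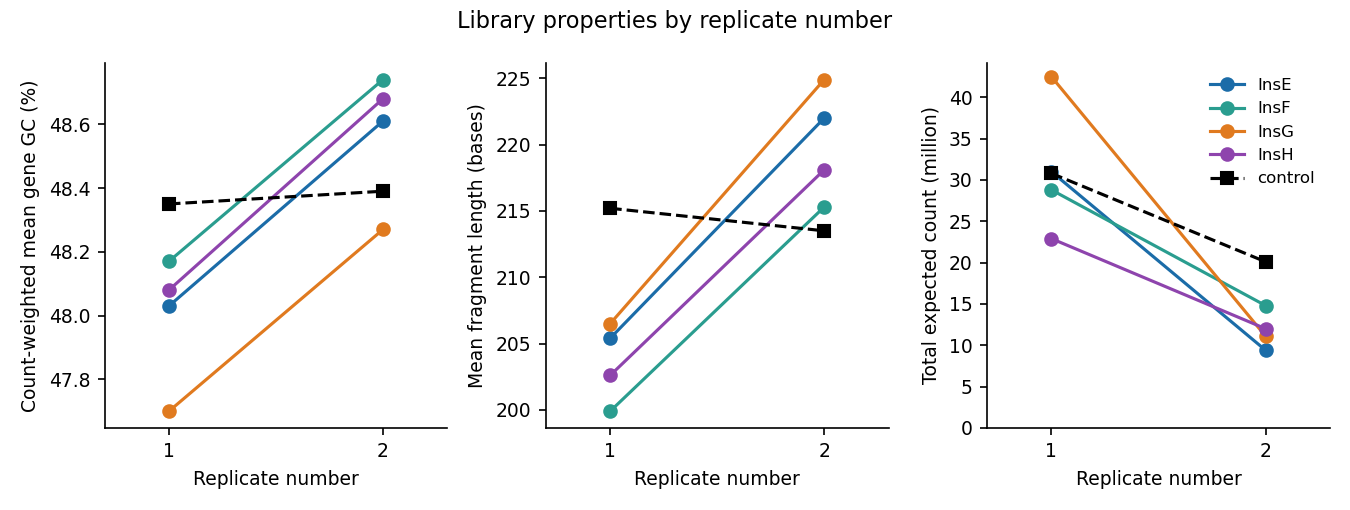
Library properties by replicate number, with 1 line per group: count-weighted mean GC content of the counted genes (%), mean fragment length (bases) and total expected count. GC content and fragment length rose in all 4 insulator lines, while the control pair (dashed, squares) stayed within 0.042 points and 1.71 bases; totals fell in all 5 groups.

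Many genes separated replicate 2 from replicate 1, most of them by small amounts. Of 14457 genes tested with edgeR's quasi-likelihood test paired by line, 6149 (42.5%) passed an adjusted p of 0.05, of which 2831 (19.6%) were higher and 3318 (23.0%) lower in replicate 2. Of these, 5731 (39.6% of the genes tested) had 1 direction in all 4 lines. That is 93.2% of the called genes, while 7395 (51.15%) of all genes tested had 1 direction. The test is paired over these same lines and favours genes that move alike in them, so the shared direction largely follows from the call. The median size of a called difference was 0.16 on the log2 scale, and 93.8% of the called genes differed by less than 1.5-fold. On the deposited TPM values, which also correct for transcript length, limma called 1107 genes higher and 2015 lower, 35.5% higher against 46.0% in the count fit. DESeq2 called 3747 genes, and edgeR without the term for the line called 396.

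Among genes of higher level, the 4 lines had similar replicate differences and the control pair did not share them. Among the 6343 genes above 32 CPM (counts scaled to library size with TMM factors), the replicate difference had an SD across genes of 0.154 to 0.164 in the 4 lines and 0.056 in the control pair. Across these genes the differences of any 2 lines correlated at 0.81 to 0.85, and those of a line and the control pair at 0.046 to 0.078. Over all 14457 genes tested, low levels included, the SD was 0.41 to 0.48 in the lines and 0.28 in the control pair. The correlations there were 0.47 to 0.54 between lines and -0.022 to 0.041 with the control. Genes are not independent replicates, so these values describe the libraries only. Measured against counting noise, protein-coding genes with at least 50 counts in a pair varied 6.38 to 7.69 times as much as counting alone gives within a line and 1.31 times within the control pair. After 1 shared replicate shift per gene was taken out of the 4 lines, 1.15 times counting noise was left. The control pair moved the same way as the lines for 3309 of the 6149 called genes (53.8%), beside 52.4% of all genes tested. A test of the difference itself, the control pair's replicate difference against the mean of the 4 lines, passed for 2349 of 14640 genes (16.0%; 4070 at an unadjusted p under 0.05). The control side of this test is 1 pair with no replicate of its own, so the spread (3 residual degrees of freedom) comes from the insulator lines alone. The count was 773 with DESeq2 and 1051 after all libraries were thinned to the depth of the shallowest.

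The largest differences sat mostly on pseudogenes, and more often on genes that share much of their sequence with other genes. Of the 219 called genes that differed at least 2-fold (1.51% of those tested), 164 are annotated as pseudogenes of some type and 24 as protein-coding. Among tested processed pseudogenes, 137 of 365 differed at least 2-fold, against 24 of 12368 protein-coding genes. The share of a gene's 31-base words that also occur in a transcript of another gene followed the same order. Of genes that share none of their words, 1 of 2018 was called at 2-fold or more, and of those sharing up to 5%, 2 of 5015. Among genes sharing 5 to 25% and 25 to 50%, 23 of 4717 and 42 of 1304 were. Among genes sharing 50 to 75% and over 75%, 73 of 645 and 78 of 745 were. The level also differed, with a median log2 CPM of 0.73 in processed pseudogenes and 5.04 in protein-coding genes. Long intergenic noncoding RNA genes, with a median of 0.79, had 6 of 401 called at 2-fold or more. The minimum-count filter was applied to the line libraries alone, so a gene of low level could pass it through 1 replicate number. Such a gene enters with a large line difference, and the control pair had no part in the filter. How many pseudogenes entered this way was not counted. The 3 genes at or under 5% were FOSB, an immediate early transcription factor gene, RNF180, a ubiquitin ligase gene, and the mitochondrial tRNA gene MT-TA, named after their values were seen. Counted alike in every pair, whether called or not, 129 to 144 of the 365 processed pseudogenes differed at least 2-fold in a line and 23 in the control pair. By the same count 99 to 206 of 12368 protein-coding genes did so in a line and 64 in the control, and 141 to 172 against 80 of the 745 genes sharing over 75% of their words. Over all 14457 genes the counts were 354 to 534 in a line and 168 in the control pair, whose depth is higher than that of the lines' replicate 2. Of the 219 genes, 13 differed 2-fold in the control in the direction of the lines.

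The sequences below show how alike such genes are to their sources. RPL41P2 is a processed pseudogene on chromosome 15 (28315651 to 28316059, hg38, plus strand) of RPL41 (chromosome 12, 56116586 to 56117943), which encodes a small protein of the large ribosomal subunit. Over the RPL41 coding sequence without its stop codon, the annotated transcripts (GENCODE release 29) differ at 0 of 75 bases.
RPL41: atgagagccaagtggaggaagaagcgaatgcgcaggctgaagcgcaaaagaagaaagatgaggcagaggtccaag
RPL41P2: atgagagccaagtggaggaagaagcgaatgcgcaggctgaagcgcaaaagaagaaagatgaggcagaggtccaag
UQCRHL (chromosome 1, 15807169 to 15809348, minus strand) is an intronless copy of UQCRH (chromosome 1, 46303631 to 46316776), the gene of a hinge protein in respiratory complex III. Capitals mark the 4 of 273 coding bases at which they differ.
UQCRH: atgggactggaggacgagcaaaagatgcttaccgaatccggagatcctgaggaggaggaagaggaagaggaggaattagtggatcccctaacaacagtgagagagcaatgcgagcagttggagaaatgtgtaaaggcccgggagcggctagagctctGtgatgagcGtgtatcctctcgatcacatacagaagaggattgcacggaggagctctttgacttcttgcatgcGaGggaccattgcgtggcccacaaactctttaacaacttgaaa
UQCRHL: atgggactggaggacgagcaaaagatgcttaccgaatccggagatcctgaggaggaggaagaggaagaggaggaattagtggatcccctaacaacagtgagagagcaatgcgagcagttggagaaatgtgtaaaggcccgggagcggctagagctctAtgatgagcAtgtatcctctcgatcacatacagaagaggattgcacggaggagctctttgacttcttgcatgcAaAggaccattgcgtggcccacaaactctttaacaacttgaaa
MTRNR2L12 (chromosome 3, 96617188 to 96618236, minus strand) is a nuclear copy of the mitochondrial 16S ribosomal RNA gene MT-RNR2. Its short annotated reading frame and the matching stretch of MT-RNR2 differ at 2 of 72 bases, in capitals.
MTRNR2L12: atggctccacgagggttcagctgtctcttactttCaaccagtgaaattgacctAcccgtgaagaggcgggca
MT-RNR2: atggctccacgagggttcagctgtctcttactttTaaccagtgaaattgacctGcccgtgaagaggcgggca

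RPL41P2 had 11.3, 10.8, 10.3 and 11.5 CPM in replicate 1 of InsE, InsF, InsG and InsH and 78.2, 66.9, 65.8 and 69.3 CPM in replicate 2. Every replicate 2 library lay far above every replicate 1 library, and the control pair, at 82.6 and 78.4 CPM, lay with replicate 2. The difference was 2.67 ± 0.04 on the log2 scale (SE; edgeR adjusted p = 1.16e-33), and RPL41P2 was chosen after its values were seen. RPL41 itself fell by 0.18 ± 0.01, and the sum of both genes changed by -0.02 ± 0.03 (SD, n = 4 lines). UQCRHL ran the other way, with 10.6, 10.7, 9.87 and 8.73 CPM in replicate 1 and 2.77, 3.01, 3.12 and 3.05 CPM in replicate 2. Its control libraries, at 2.89 and 2.93 CPM, again matched replicate 2 of the lines. The UQCRHL difference was -1.73 ± 0.11 (adjusted p = 1.61e-15), while UQCRH did not pass the test (-0.03 ± 0.02, adjusted p = 0.199). The sum of UQCRHL and UQCRH changed by -0.088 ± 0.047 (SD, n = 4 lines). MTRNR2L12 had 45.7, 41.0, 41.0 and 37.5 CPM in replicate 1, 121.0, 99.4, 101.6 and 104.7 CPM in replicate 2, and 117.2 and 110.9 CPM in the control pair. MTRNR2L12 rose by 1.36 ± 0.03 (adjusted p = 3.77e-28), and MT-RNR2 fell by 0.18 ± 0.01 (adjusted p = 0.000975). Their sum changed by -0.160 ± 0.016 (SD, n = 4 lines).

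Pseudogenes differed far more than the genes they were copied from. For 358 tested pseudogenes whose name gives a tested protein-coding source gene, 188 were called and 102 of these differed at least 2-fold, 63 higher and 39 lower in replicate 2. None of the sources of those 102 differed 2-fold, the largest source difference being 0.34 in absolute value. The median absolute log2 difference of the 102 was 1.60 for the pseudogene and 0.090 for the source. The pseudogene held a median of 0.56% of the summed level of both, so the sum says little about the pseudogene. In the control pair the same pseudogenes had a median absolute difference of 0.22. The 102 were selected by their size in the lines, which widens these gaps. Over all 358 pseudogenes the median absolute difference was 0.449 in the lines and 0.225 in the control pair. For their sources it was 0.090 in the lines. RPS2P5, a copy of the ribosomal protein gene RPS2, took 12.6% of the summed level of RPS2P5 and RPS2 in replicate 1, 5.97% in replicate 2 and 5.21% in the control. RPSAP58, a copy of RPSA, took 6.85%, 2.90% and 2.22% of its sum with RPSA in that order. The sums of these pairs changed by 0.043 ± 0.012 and 0.030 ± 0.006 (SD, n = 4 lines). These 2 examples were chosen after their values were seen, and in each the control share lay nearer to replicate 2. Of the 71 genes called at 2-fold or more in 1 direction in all lines with a mean log2 CPM above 1, the control mean lay nearer to the replicate 2 mean for 67 (94.4%). The median distance of the control from replicate 2 was 0.31 and from replicate 1 was 1.72 on the log2 scale. Over all 5731 genes called in 1 direction, the control lay nearer to replicate 2 for 57.1%, beside 53.3% of all genes tested. Fitted folds of genes near 0 counts in 1 replicate number are not bounds, and of the 219 genes 4 had no counts in any replicate 1 library of the lines and 1 had none in any replicate 2 library.

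**Figure D2:**
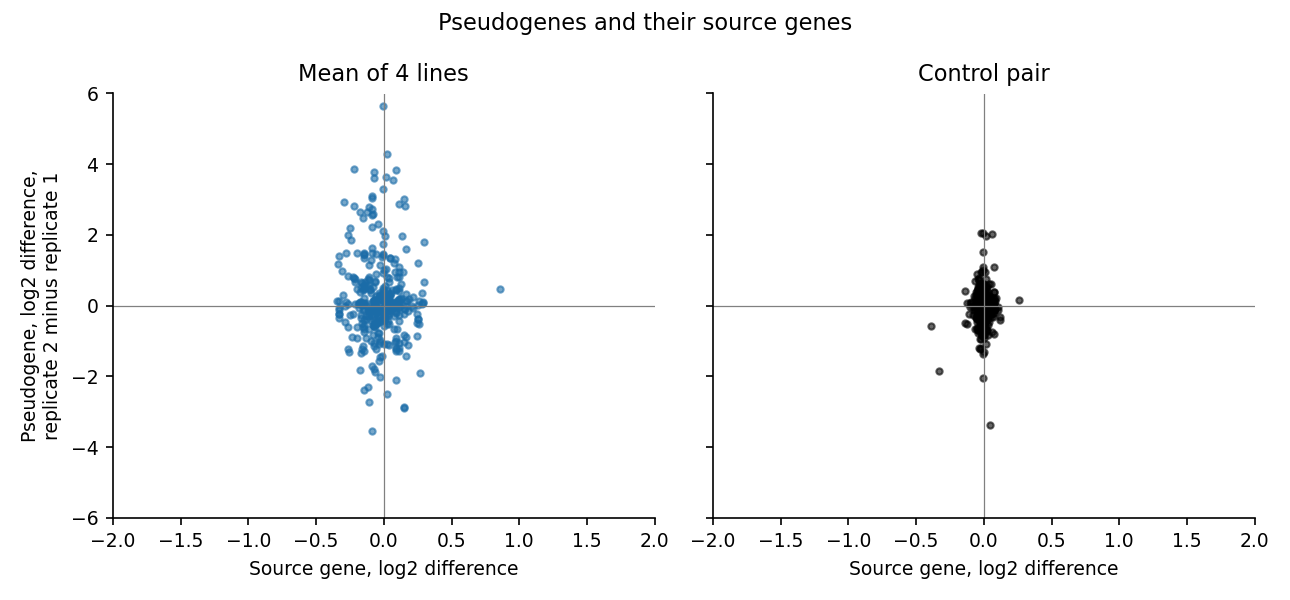
Each point is 1 of 358 pseudogenes: the log2 difference of CPM (replicate 2 minus replicate 1) of the pseudogene on the vertical axis against that of its source gene on the horizontal axis, as the mean of 4 lines (left) and in the control pair (right). In the lines, pseudogenes spread widely in both directions while nearly all of their sources lie close to 0; the control pair spreads less.

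Readthrough genes, annotated as joint transcripts of neighbouring genes, were also among the leading genes. ATP6V1G2-DDX39B (chromosome 6, 31530219 to 31546608, minus strand) had 109.8, 66.1, 79.0 and 66.8 CPM in replicate 1 of InsE, InsF, InsG and InsH, and 21.8, 16.1, 26.0 and 9.47 CPM in replicate 2. DDX39B, the RNA helicase gene inside it, had 117.8, 164.1, 134.5 and 158.4 CPM in replicate 1 and 220.4, 229.7, 207.6 and 223.3 CPM in replicate 2. The readthrough gene fell by 2.12 ± 0.20 and DDX39B rose by 0.61 ± 0.09 (edgeR adjusted p = 0.00461 and 0.0162). Their sum changed by 0.091 ± 0.034 (SD, n = 4 lines). The readthrough gene COMMD3-BMI1 fell by 0.64 ± 0.06, and BMI1, a Polycomb gene, fell by 0.24 ± 0.02. The sum of this pair changed by -0.265 ± 0.028 (SD, n = 4 lines). MINOS1-NBL1 rose by 1.31 ± 0.10, and NBL1, a secreted BMP antagonist gene, rose by 0.37 ± 0.01 in counts but fell by 0.11 as TPM (limma adjusted p = 0.00637). The sum of MINOS1-NBL1 and NBL1 in counts changed by 0.384 ± 0.024 (SD, n = 4 lines).

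By the rule for named genes, the 12 genes with the largest difference kept in all 4 lines that were higher in replicate 2 were BCYRN1, MTRNR2L12, MINOS1-NBL1, HSPB6, DDX39B, INAFM1, HCFC1R1, ZNF787, PTMS, NDUFA3, XCL2 and IGF2. BCYRN1 encodes a short cytoplasmic RNA derived from an Alu repeat, known from neurons and tumours. It had 52.7, 47.5, 39.3 and 43.2 CPM in replicate 1 and 178.5, 152.9, 128.5 and 153.5 CPM in replicate 2. All replicate 2 libraries exceeded all replicate 1 libraries, and the control pair stood at 195.4 and 201.8 CPM. The BCYRN1 difference was 1.74 ± 0.03 (edgeR adjusted p = 1.35e-34), and 32.9% of its 31-base words occur in another gene.

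Further genes of this group have a high level. IGF2 (chromosome 11, 2129112 to 2149603, minus strand), the growth factor gene whose ligand acts through the IGF1 receptor, had 2768, 2700, 2426 and 2589 CPM in replicate 1 and 3897, 3748, 3360 and 3660 CPM in replicate 2. The groups did not overlap, and the control pair stood higher still, at 4325 and 4237 CPM. IGF2 rose by 0.48 ± 0.01 (adjusted p = 1.82e-05), and 73.6% of its words occur in another gene. HSPB6, a small heat shock protein gene of muscle, had 234, 180, 169 and 187 CPM in replicate 1 and 370, 273, 263 and 290 CPM in replicate 2. In the control pair HSPB6 stood at 343 and 347 CPM, and in the lines it rose by 0.64 ± 0.02 (adjusted p = 2.4e-26), with 34.8% of its words shared. PTMS (parathymosin, an acidic nuclear protein) rose by 0.58 ± 0.02 and shares 0.95% of its words with other genes. ZNF787 and INAFM1 rose by 0.59 each, NDUFA3, a subunit gene of respiratory complex I, by 0.55, and XCL2, a chemokine gene, by 0.52. In the control pair these 12 genes differed by -0.11 to 0.052.

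The 12 lower in replicate 2 were ATP6V1G2-DDX39B, UQCRHL, EIF5AL1, COMMD3-BMI1, NBPF26, HNRNPA1L2, SULT1B1, BOLA2, C4orf32, SLC25A33, CPEB2 and MT-ND4L. Several are members of copied families. EIF5AL1 is an intronless copy of the translation factor gene EIF5A and fell by 1.296 ± 0.154, while EIF5A rose by 0.16 ± 0.01. HNRNPA1L2, a copy of the splicing regulator gene HNRNPA1, fell by 0.59 ± 0.09. NBPF26 (a multicopy family on chromosome 1) and BOLA2 (a duplicated iron-sulfur gene) fell by 0.63 and 0.52. CPEB2, a translational regulator gene, shares 1.56% of its words with other genes and fell by 0.39 ± 0.10 (adjusted p = 0.00234), with a control difference of -0.23. MT-ND4L (positions 10470 to 10766 of the mitochondrial genome), a complex I subunit gene, had 1379, 1011, 959 and 984 CPM in replicate 1, 1100, 815, 754 and 797 CPM in replicate 2 and 946 and 938 CPM in the control. Within each line MT-ND4L was lower in replicate 2, and its difference was -0.32 ± 0.01 (adjusted p = 4.06e-29). SLC25A33 and C4orf32 rose by 0.26 and 0.19 in the control pair, against falls of 0.42 and 0.48 in the lines. With the GC trend described next removed, C4orf32 and SULT1B1 no longer passed (limma adjusted p = 0.14 and 0.126).

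**Figure D3:**
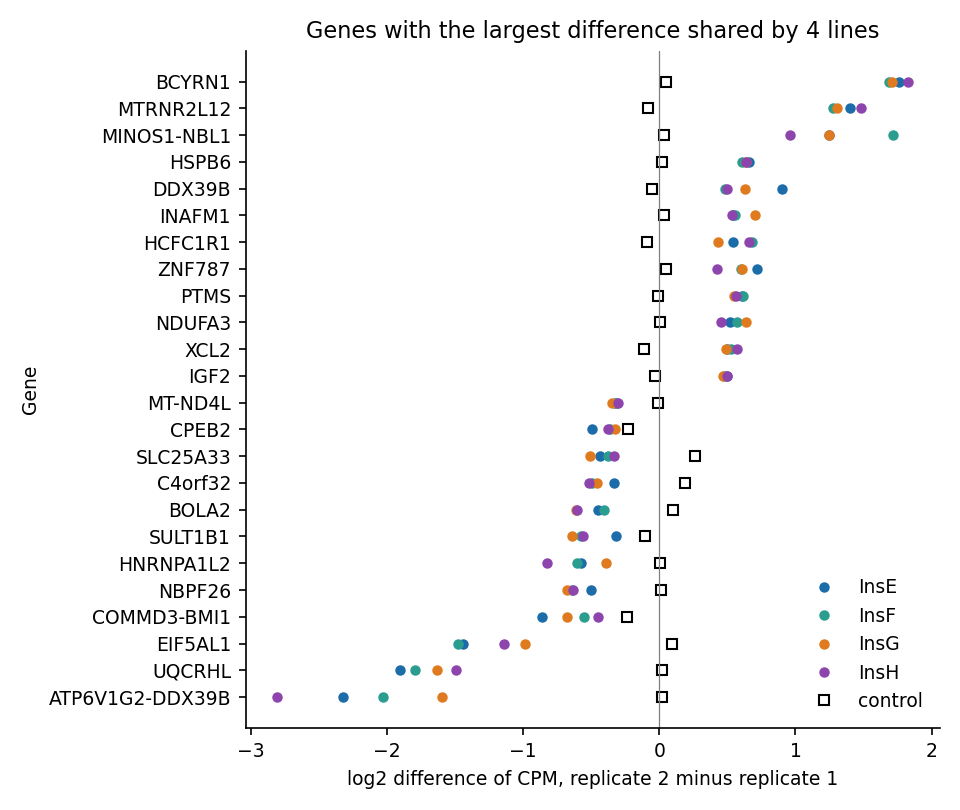
The log2 difference of CPM (replicate 2 minus replicate 1) of the 24 named genes in each of the 4 lines (dots) and in the control pair (open squares). Dots of all lines lie on 1 side of 0 by the rule that chose the genes, in which the control pair had no part. The control squares lie between -0.24 and 0.26.

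Over all tested genes with a GC value, copied genes included, the replicate difference followed the GC content of the gene (that of its longest annotated transcript). Genes of at most 40% GC had a median log2 difference of -0.17, with 1532 of 2331 called lower and 25 higher. The median rose through -0.096, -0.013, 0.058, 0.11 and 0.14 in the next bins of 5 points each and reached 0.15 in the 486 genes over 65% GC, of which 211 were called higher and 4 lower. Against the background of 19.6% higher and 23.0% lower, the direction of a call thus changed from mostly lower to mostly higher along GC. Across genes the difference correlated with GC at a Spearman's rho of 0.48 to 0.51 in each line and 0.071 in the control pair, and with gene length at -0.089 to -0.11 and -0.026. The control medians ran from -0.010 to 0.038 over the bins. When each library's trend on GC was taken out, limma called 2303 of 14444 genes (15.9%), 1122 higher and 1181 lower, against 6086 by limma without that step, both settings being added after the data were seen.

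**Figure D4:**
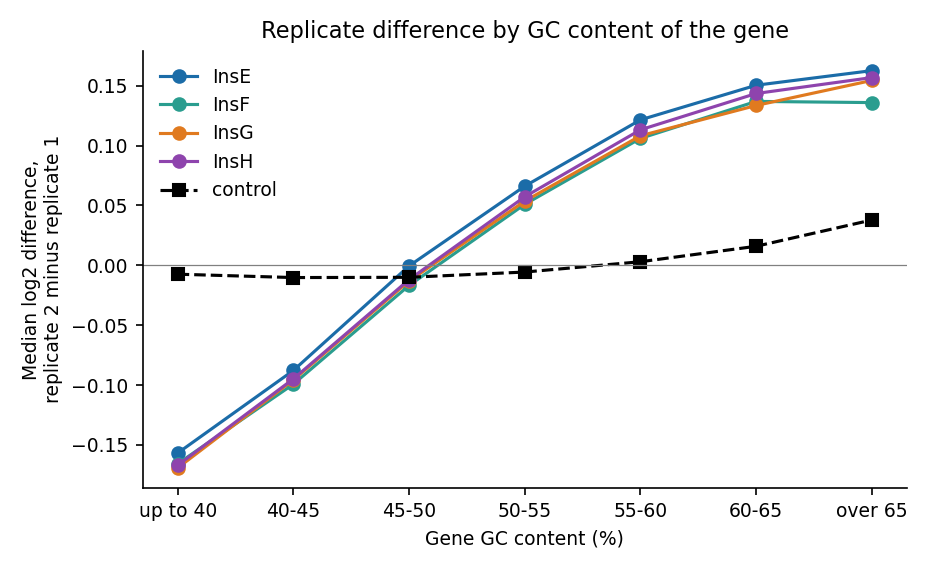
Median log2 difference (replicate 2 minus replicate 1) of the genes in each of 7 bins of gene GC content (%), for each of the 4 lines and the control pair (dashed). The 4 lines run together from below 0 at low GC to above 0 at high GC; the control medians stay between -0.010 and 0.038.

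Gene lists for 43 processes and cell types were read against this background. Of 40 lists with at least 5 tested members, 22 had a positive and 18 a negative median, none beyond 0.17 in absolute value. The list medians correlated with the lists' median GC content at a Spearman's rho of 0.74 (40 lists, which share libraries and some genes). The median over all genes was -0.008, and it was -0.034 as TPM and -0.014 with the GC trend removed.

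Some lists had more higher than lower members, where 19.6% of all tested genes were higher and 23.0% lower. Their level differed from that of all genes, whose median log2 CPM was 4.60. It was 7.88 in the glycolysis list, 7.10 in the collagen and matrix list and 2.93 in the immediate early list. The part of level in the shares called was not tested. Glycolysis genes had 12 of 20 higher and 1 lower in replicate 2 (median 0.11; median GC 53.8%). ALDOA, the aldolase gene, went from 908, 934, 856 and 932 CPM in replicate 1 to 1080, 1108, 1013 and 1091 CPM in replicate 2, without overlap. It rose by 0.24 ± 0.01 (edgeR adjusted p = 2.24e-28), and ENO1 and GPI rose by 0.19 and 0.22. Removing the GC trend, after which 15.9% of all genes were called, left 6 of the 20 glycolysis genes higher and 3 lower. Collagen and matrix genes had 13 of 30 higher and 5 lower (median 0.060). COL1A1, the main chain of type I collagen, had 20.15, 26.7, 20.04 and 21.6 CPM in replicate 1 and 32.6, 34.3, 29.3 and 30.0 CPM in replicate 2. It rose by 0.50 ± 0.05 (adjusted p = 2.67e-10) in all 4 lines and stood at 15.7 and 15.2 CPM in the control pair. COL18A1, COL5A1 and COL6A2 rose by 0.40, 0.28 and 0.27. After removal of the GC trend, 10 matrix genes were higher and 0 lower, with COL1A1 at 0.38, while COL18A1 did not pass (limma adjusted p = 0.0848). Of 18 immediate early genes, 7 were higher, 0 lower and 11 not called, and 38.9% called is below the 42.5% of all genes. With the GC trend removed, 4 were higher and 0 lower, and the list's median turned from 0.088 to -0.028 (median GC 55.2%). The called genes included FOSB (1.08 ± 0.25), KLF2 (0.38), JUND (0.35) and EGR1 (0.26). FOSB had 0.74, 0.73, 0.66 and 1.08 CPM in replicate 1 and 1.60, 1.81, 1.61 and 1.65 CPM in replicate 2, a low level without overlap. KLF2 was higher in InsE, InsF and InsG and not in InsH, and it did not pass with the GC trend removed (limma adjusted p = 0.24). In the control pair FOSB differed by 0.23 and EGR1 by -0.031.

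Other lists had more lower than higher members. Of 38 mitosis genes, 21 were lower and 6 higher (median -0.082; median GC 43.2%). CENPE, a kinetochore motor gene, fell by 0.25, CDK1, the mitotic kinase gene, by 0.24, and TTK by 0.22, while INCENP, whose GC content is 59.6%, rose by 0.22. With the GC trend removed, 4 were higher and 4 lower, and CENPE did not pass (limma adjusted p = 0.12). Splicing factor genes, the list with the lowest GC content (median 41.0%), had 16 of 33 lower and 8 higher (median -0.047). CLK1, a kinase gene of the splicing machinery, fell by 0.20 (limma adjusted p = 0.874 with the GC trend removed), and SNRNP70 and U2AF2 (63.7% and 61.1% GC) rose by 0.24 each. After that removal, 19 of the 33 were higher and 1 lower (median 0.070), where 15.9% of all genes were called. Of 42 genes of DNA replication, 13 were higher and 14 lower (median 0.006), and 2 and 13 with the GC trend removed. As TPM their median was -0.043, beside -0.034 for all genes. CHAF1A, a chromatin assembly gene, rose by 0.23, and RFC3, a clamp loader gene, fell by 0.24. FOXO target genes had 6 of 22 lower and 2 higher, p53 target genes 8 of 26 lower and 2 higher, and hypoxia-response genes 7 of 21 lower and 1 higher. Their shares called, 36.4%, 38.5% and 38.1%, lie below the 42.5% of all genes. Removing the GC trend left 1 higher and 2 lower FOXO target genes, 1 and 1 p53 target genes, and 1 and 2 hypoxia-response genes. KITLG, the gene of the KIT ligand, fell by 0.32 ± 0.04 (adjusted p = 1.03e-08), and by 0.16 with the GC trend removed.

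**Figure D5:**
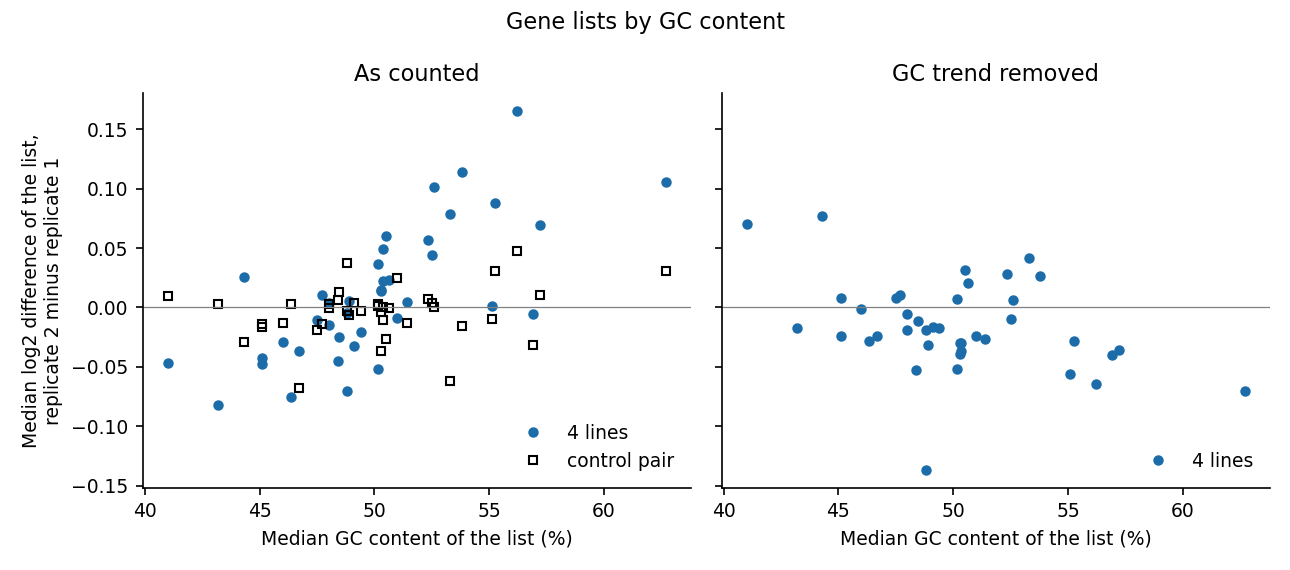
Each point is 1 of 40 gene lists: its median log2 difference (replicate 2 minus replicate 1) against the median GC content of its genes (%), as counted (left, with the control pair as open squares) and with the GC trend removed (right). As counted, list medians rise with GC content in the lines.

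Members of 1 machine moved in opposite directions. Of 79 cytosolic ribosomal protein genes, 32 were higher and 31 lower, with a median of 0.004. RPL36 (61.9% GC) rose by 0.43 ± 0.02, while RPL23A, RPS25 and RPL7 fell by 0.33, 0.28 and 0.26. RPS25 as TPM was higher by 0.17 (limma adjusted p = 0.0111). The summed share of these genes differed by at most 0.035 percentage points within a line. Once the GC trend was removed, 26 of the 79 were higher and 32 lower, where 15.9% of all genes were called. Ribosomal protein genes are known for their many pseudogenes. Of 13 mitochondrially encoded protein genes, 8 were higher and 3 lower. MT-ND6, which is read from the other strand of the mitochondrial genome, rose by 0.22 ± 0.01, and MT-CO2, a cytochrome oxidase subunit gene, by 0.13 ± 0.003. MT-ATP8 fell by 0.24 ± 0.01, with 680, 585, 586 and 561 CPM in replicate 1 and 579, 494, 489 and 482 CPM in replicate 2. Nuclear genes of the respiratory chain divided into 19 higher and 23 lower of 65, led by NDUFA3 (0.55) and NDUFA5 (-0.29), with 56.4% and 35.0% GC. Cholesterol genes divided into 11 higher and 10 lower of 24 (median 0.049, and -0.045 as TPM, beside -0.034 for all genes as TPM). Proteasome genes divided into 11 higher and 12 lower of 31. In these ribosomal, mitochondrial, respiratory chain, cholesterol and proteasome lists, 64.6% to 87.5% of genes were called, beside 42.5% of all genes. Their median log2 CPM was 6.47 to 11.2, beside 4.60 over all genes.

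Genes that identify the tumour type and the studied locus moved by small amounts. KIT (chromosome 4, 54657918 to 54740715), the receptor kinase gene that drives most GIST, had 1259, 1406, 1511 and 1423 CPM in replicate 1 and 1185, 1293, 1414 and 1335 CPM in replicate 2. It fell in every line, by 0.099 ± 0.004 (edgeR adjusted p = 1.92e-19), although the groups overlapped across lines, and differed by -0.023 in the control pair. With the GC trend removed, its difference was -0.021 (limma adjusted p = 0.0778). ANO1, whose protein DOG1 marks GIST, rose by 0.104 ± 0.008 in counts (adjusted p = 2.4e-13) and was lower by 0.078 as TPM (limma adjusted p = 0.0259). FGF3 on chromosome 11 did not pass (0.12 ± 0.07, adjusted p = 0.169), with 36.6, 12.6, 5.23 and 7.31 CPM in replicate 1 and 36.3, 14.2, 5.44 and 10.4 CPM in replicate 2. CTTN rose by 0.10 ± 0.02 (limma adjusted p = 0.818 with the GC trend removed), and 2 of the 10 tested genes of the FGF3 and ANO1 locus were called, a smaller share than the 42.5% of all genes. The 16 tested markers of GIST and interstitial cells of Cajal had a median of 0.056. As TPM their median was -0.041, beside -0.034 for all genes. Of the 16, 7 were higher, led by THY1 (0.21) and FOXF1 (0.18), and ETV1 (-0.14) and KIT were lower. With the GC trend removed, ETV1 stood at 0.0043 (limma adjusted p = 0.909).

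Markers of blood and endothelial cells were near 0, while the sum of the epithelial markers, mostly KRT18, was higher in replicate 2. Of 17 blood and immune markers, 5 had no count in any of the 10 libraries (CD3D, CPA3, HBB, MS4A1 and TYROBP), and the sum over the list was 2.92 to 3.41 CPM in replicate 1 and 2.83 to 3.98 CPM in replicate 2. The 9 endothelial markers summed to 0.81 to 2.14 and 0.85 to 2.56 CPM, with ROBO4 at 0. The 13 epithelial markers summed to 167 to 186 and 187 to 218 CPM, without overlap, with KRT19 and KRT20 at 0. In the control pair they summed to 223 and 232 CPM. Nearly all of it was KRT18, a keratin gene, which rose by 0.19 ± 0.02 in all 4 lines (edgeR adjusted p = 4.3e-10). The list's median of 0.165 over 5 tested genes was the largest of the 40 lists, and it was -0.064 with the GC trend removed. The list's part in the other results was not tested. The 11 neuronal and glial markers summed to 31.1 to 45.7 and 35.2 to 50.4 CPM, mostly TUBB3.

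InsE differed from the other lines in its replicate difference for 9 of 14457 genes (0.0623%; 880 at an unadjusted p under 0.05), for 2 with DESeq2 and for 70 without InsG. The leading genes were again overlapping pairs. ISY1-RAB43, a readthrough gene on chromosome 3 (129087575 to 129161036), went from 35.6 to 6.28 CPM in InsE, and from 34.3 to 23.0, from 30.9 to 17.6 and from 35.6 to 21.6 CPM in InsF, InsG and InsH. RAB43, the small GTPase gene inside it, went from 11.7 to 39.4 CPM in InsE, and from 18.2 to 27.6, from 18.6 to 27.8 and from 17.6 to 25.4 CPM in the others. The direction was shared by the 4 lines, though neither gene passed over the 4 lines together (edgeR adjusted p = 0.107 and 0.114). The size was larger in InsE, by -1.81 for ISY1-RAB43 and by 1.18 for RAB43 on the log2 scale (edgeR adjusted p = 4.12e-08 and 9.73e-08). In the control pair ISY1-RAB43 differed by 0.34 and RAB43 by -0.14.

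Fragment length, depth and GC content moved with the replicate number in the lines, and their part in the gene differences was not tested beyond the fits given; what else differed between the replicates cannot be told apart from them.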

How the data were processed

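The authors deposited 1 table per library with RSEM's expected counts and TPM values, gene lengths and effective lengths for 58381 genes. The submitters' processing notes list the aligner STAR (2.5.3), RSEM (1.3.2), DESeq2 (1.38.3) and build hg38. For annotation release and strand setting: not given in the sources used here. A series table with 10 value columns was not used.

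Expected counts were rounded to whole numbers. The quasi-likelihood test of edgeR 4.0.16 (robust fit, R 4.3.3) followed TMM normalisation and a minimum-count filter of 10, with terms for line and replicate number (8 libraries, 3 residual degrees of freedom). The pairing comes from the line, which both libraries of a pair share. All tests are two-sided, and p-values were adjusted after Benjamini-Hochberg with a threshold of 0.05. Differences per line use log2 CPM with a prior count of 2. DESeq2 1.42.0 and limma 3.58.1 (TPM plus a pseudocount of 1, and fits with a loess trend on GC, span 0.5, removed) were alternatives. Gene type, GC and 31-base words came from GENCODE release 29 (58261 genes matched). Scripts were tested on simulated counts. The members and gene lists were chosen with earlier results of these data known.

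Leading genes passed the test with 1 direction in all lines, had a mean log2 CPM of at least 2 and a symbol that is no clone, pseudogene or RNA family name. Of these, the 12 higher and 12 lower whose weakest line differed most were named. Further named genes were up to 4 called genes per list, those with the 5 smallest p-values of each interaction test, and KIT, ANO1 and FGF3.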

Additional observations from a re-analysis of the deposited data

Results flagged for a closer look

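The replicate difference of the control pair departed from the mean of the 4 lines for 2349 genes (edgeR quasi-likelihood interaction test, adjusted p under 0.05), with the control pair unreplicated. Of named genes, the smallest p-values belonged to BCYRN1, MT-CO2, MTRNR2L12, NBL1 and ALDOA. The control difference minus that of the lines was -1.70 for BCYRN1, -0.15 for MT-CO2, -1.44 for MTRNR2L12, -0.39 for NBL1 and -0.24 for ALDOA on the log2 scale. In each, the control pair differed by at most 0.08 and the lines by at least 0.12. The adjusted p-values ran from 2.1e-28 to 4.04e-21.

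Replicate 2 of InsE departed from replicate 1 in another degree than in InsF, InsG and InsH for 9 genes. The gap was -1.81 for ISY1-RAB43, 1.18 for RAB43, 0.37 for DDX39B, -0.28 for HNRNPUL2-BSCL2 and 0.045 for HNRNPA1 (edgeR adjusted p between 4.12e-08 and 0.0346). ISY1-RAB43 and HNRNPUL2-BSCL2 are readthrough genes that overlap their neighbours.

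Mean fragment length was longer in replicate 2 of every insulator line, by 15.4 to 18.5 bases, and differed by -1.71 bases in the control pair. This difference between groups was not tested.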

How the results depend on the processing

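Called genes numbered 3747 with DESeq2, 3122 with limma on log2(TPM + 1) and 3413 with the control pair added. With the GC trend removed (chosen after seeing the data, as are the next 2) they numbered 2303, among genes sharing under 5% of their 31-base words 3242 of 7031, and with both 979. Leaving out the pairing (no replicate block for the line) left 396. Genes called in 1 direction in all lines numbered 3708, 2865, 1891, 2966, 759 and 396 with DESeq2, TPM, GC removal, unshared genes, both and no pairing, and those with the control's direction 2062, 1726, 1097, 1761, 481 and 200. In every setting the directions per line and of the control pair were read from log2 CPM, with no GC trend removed. For TPM and GC removal these counts therefore join a call on 1 scale with directions on another. Fewer genes tested lowers the counts of the unshared sets; otherwise the cause was not tested. Leaving out 1 line gave 5175 to 5562 called, 5105 to 5481 in 1 direction and 2773 to 2989 with the control's direction. The control's departure was called for 773 genes with DESeq2, 1051 after thinning to the shallowest library and 2008 to 2245 without 1 line. InsE's departure was called for 2 genes with DESeq2, 51 without the filter, 4 after thinning and 9 to 70 without InsF, InsG or InsH (70 without InsG); it cannot be had without InsE. Library sizes alone, no or a stricter count filter and removal of a length trend kept the main count within 1.5 times.

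Signs turned with the GC trend removed for ETV1 (0.0043), ME1 (0.0065), ACADVL (-0.024), NFKB2 (-0.039), ACSL3 (0.0090), CLOCK (0.0025), SKIL (0.0069), LTBP3 (-0.0030), FASN (-0.046), PER1 (-0.020), CEBPD (-0.0093) and TUBB3 (-0.030). As TPM they turned for ACADM (0.065), RPS25 (0.17), ANO1 (-0.078), NKD1 (-0.16), PDK1 (0.012), NBL1 (-0.11) and LTBP3 (-0.072). Replicate 2 of the lines holds 9399554 to 14833338 counts, which limits genes of low level.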
